A study of Mus musculus with 2 samples.

Results

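The 586 cells described here are the ends of a trajectory within the non-cycling cells of B16F0, the parental line of the mouse B16 melanoma. They were chosen from 1171 B16F0 cells that the deposited annotation classes as non-cycling, out of 2582 B16F0 cells and 4156 cells in the series. Within those 1171 cells, the 293 with the lowest deposited pseudotime form the early end and the 293 with the highest form the late end. The study measured messenger RNA in single cultured cells of B16F0 and of B16F10, labelled a highly metastatic subclone, captured in droplets, where the 3' ends of transcripts are read and each molecule is counted once by its unique molecular identifier (UMI). Each line gave 1 library, and the labels name no treatment, gene modification or time point for either. No replicate check is therefore possible, every interval covers counting error only, and no difference below carries a test. Pseudotime was itself computed from expression, so every gene, cluster and state value that follows describes the cells the rule picked and supports nothing further.

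Pseudotime places each cell along a path fitted through the expression profiles, so that neighbours on the path have similar transcriptomes; it is not a measured time. Melanocytic cells make melanin in melanosomes, lysosome-related organelles in which tyrosinase and its relatives act on a fibrillar matrix, and the transcription factor MITF drives many of these genes. Cells that leave the division cycle stop transcribing the genes for DNA replication and mitosis, whose messenger RNAs otherwise rise from late G1 until cell division.

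Pseudotime ran from 4.07 to 12.9333 in the early end, with a median of 11.2, and from 15.2669 to 15.8539 in the late end, with a median of 15.4. The first cell outside the early end had a value of 12.9336 and the first outside the late end 15.2663, so both borders fall between near neighbours. The early cells held 10274139 UMIs in sum and the late cells 9670094, over 14959 genes. The limit that a count of 0 allows, which is 3 counts, corresponds to 0.292 CPM (counts scaled to a total of 1000000) in the early end and 0.310 CPM in the late end. The median depth was 33761 UMIs and 5045 genes per early cell and 31735 UMIs and 4927 genes per late cell. Mitochondrially encoded transcripts took a median of 5.12% of UMIs in early and 5.49% in late cells, and ribosomal protein transcripts 28.3% and 30.3%. With cells thinned to 1 depth, 49 genes were 2-fold higher in late cells and 114 lower, with only cells of at most 8% mitochondrial UMIs 49 and 117, and with mitochondrial and ribosomal protein genes left out of the total 72 and 145, against 46 and 118 with all cells and genes. With that smaller total 6253 genes were compared, against 4925 with all cells and genes. All 10 of the fixed melanocytic markers were detected. Of the fibroblast markers in the counts, Col1a2 stood at 2.53 CPM early and 5.07 CPM late and Pdgfra at 0, and no macrophage marker exceeded 5.17 CPM. Of the endothelial markers, Egfl7 stood at 70.7 CPM early and 61.1 CPM late, Pecam1 was under the limit of a count of 0 in both ends, and the other 3 were not among the genes counted. None of the T and NK, keratinocyte or erythroid markers was among the genes counted. No cell of either end carried one of the 6 barcodes that both libraries share.

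The ends differed in the deposited clusters and trajectory states. The 1171 cells were cut into 4 pseudotime bins of 25% each, bin 1 being the early end and bin 4 the late end, and 4 values in a row below are those of bins 1 to 4. Cluster C1 held 71.7%, 80.9%, 48.6% and 2.73% of the cells. Cluster C3 held 27.0% of the early cells (95% exact Clopper-Pearson interval 21.97 to 32.4%), then 19.1% and 51.0%, and 97.3% of the late cells (94.7 to 98.8%). State 5 held 61.4% of the early cells (55.6 to 67.0%) and none in the other bins. State 6 held 34.5% of the early cells, 98.6% and 57.2% in bins 2 and 3 and none of the late cells. All 293 late cells were in state 7, against 12 early cells. The early end is thus a mixture of 180 cells of state 5, 101 of state 6 and 12 of state 7, whereas the late end is a single state, nearly all of it cluster C3. The 79 early cells of C3 came from state 5 (36 cells), state 6 (34) and state 7 (9).

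**Figure D1:**
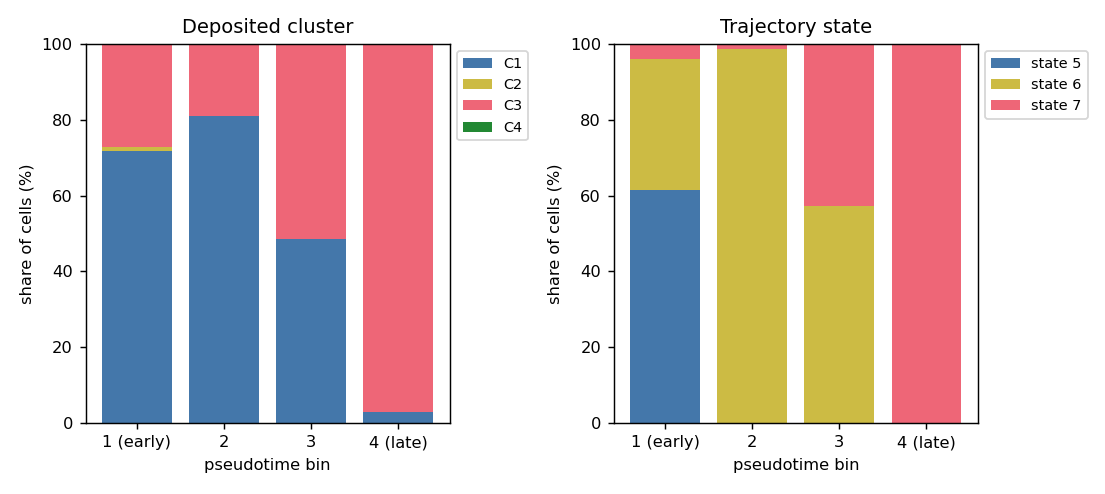
Share of cells (percent, vertical axis) of each deposited cluster (left) and trajectory state (right) in the 4 pseudotime bins of non-cycling B16F0 cells. Cluster C3 takes 97.3% and state 7 all cells of the late bin, while state 5 occurs only in the early bin.

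The deposited scores differed along the same axis. The median MITF score was 0.051 and 0.054 in bins 1 and 2, 0.207 in bin 3 and 0.272 in bin 4, with an SD over cells of 0.322 early and 0.257 late, so the distributions overlap. All 1171 cells had S and G2/M scores of at most 0. The median S score went from -0.116 early to -0.202 late and the median G2/M score from -0.191 to -0.287. The deposited Kdm5b-high class held 3.41%, 6.83%, 6.51% and 14.3% of the 4 bins. Kdm5b encodes a histone H3 lysine 4 demethylase known as a marker of slow-cycling melanoma cells. Its own transcript stood at 10.4, 15.0, 15.8 and 25.03 CPM over the bins, and after thinning every cell to 20273 UMIs it was seen in 21.6% of 273 early and 38.1% of 257 late cells (28.7% and 55.3% unthinned).

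The melanin and melanosome list and the division genes are 2 of the groups that differed between the ends. That list also holds Met, which is an MITF target and a growth factor receptor gene rather than a pigment gene. The start regions of 4 genes are printed to show 2 short motifs that recur in these groups. Each run covers 250 bases before the RefSeq start site and 30 after it, 5′ to 3′ on the gene's strand, from build GRCm38.p6. Capitals mark CATGTG or CACGTG, the E-box letters that MITF is known to bind, in Tyr (chr7:87493483-87493762, minus strand) and Met (chr6:17463707-17463986, plus strand). In Cenpa (chr5:30666636-30666915, plus strand) and Ube2c (chr2:164769679-164769958, plus strand), capitals mark TTTGAA or its reverse complement, the letters of the cell cycle homology element.
Tyr: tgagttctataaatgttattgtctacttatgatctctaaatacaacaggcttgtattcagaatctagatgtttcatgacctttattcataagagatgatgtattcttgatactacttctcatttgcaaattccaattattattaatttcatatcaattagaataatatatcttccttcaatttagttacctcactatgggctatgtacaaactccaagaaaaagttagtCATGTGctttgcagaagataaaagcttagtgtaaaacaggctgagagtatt
Met: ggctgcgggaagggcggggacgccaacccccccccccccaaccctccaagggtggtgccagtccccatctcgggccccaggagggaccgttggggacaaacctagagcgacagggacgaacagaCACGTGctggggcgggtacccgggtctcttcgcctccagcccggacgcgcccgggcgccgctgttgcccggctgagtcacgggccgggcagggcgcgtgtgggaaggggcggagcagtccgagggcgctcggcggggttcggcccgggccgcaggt
Cenpa: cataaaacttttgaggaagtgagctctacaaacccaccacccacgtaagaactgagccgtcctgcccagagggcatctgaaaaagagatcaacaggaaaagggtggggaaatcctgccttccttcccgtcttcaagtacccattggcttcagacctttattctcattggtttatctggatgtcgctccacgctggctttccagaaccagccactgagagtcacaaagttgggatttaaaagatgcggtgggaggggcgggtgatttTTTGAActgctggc
Ube2c: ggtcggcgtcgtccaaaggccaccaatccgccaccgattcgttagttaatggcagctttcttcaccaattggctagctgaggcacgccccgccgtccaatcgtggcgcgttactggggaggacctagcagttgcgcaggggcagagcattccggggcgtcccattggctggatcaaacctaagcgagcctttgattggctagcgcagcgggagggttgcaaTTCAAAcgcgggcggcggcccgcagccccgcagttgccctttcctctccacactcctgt

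The match began 21 bases before the start site in Tyr, 126 before in Met and 29 before in Ube2c, and 16 after it in Cenpa. Motifs were searched on both strands in windows of 300 bases (250 before to 50 after the start). An E-box form occurred in 7 of the 9 matched genes of the melanin list that were at least 1.5-fold higher in late cells (77.8%), Met among them. For the whole melanin list it was 17 of the 28 matched genes (60.7%). Because MITF drives many genes of this kind, these shares describe the list and test nothing. Among all matched genes with at least 20 CPM the share was 22.4%, and among all genes with a RefSeq window 22.7%. TTTGAA occurred in 14 of the 18 matched G2 and M phase genes that were at least 1.5-fold lower (77.8%), against 13.5% of matched genes with at least 20 CPM and 20.2% of all genes. In the wider sets the shares were lower. TTTGAA occurred in 32 of the 93 matched genes that were 2-fold lower (34.4%) and in 4 of the 10 matched genes among the 12 lowest described below. An E-box form occurred in 10 of the 31 matched genes that were 2-fold higher (32.3%). Among the 12 highest described below it occurred in 2 of the 8 matched genes (25%), near the share of all genes. The 4 printed genes were chosen because they hold a match. No motif contains another, and a match describes the sequence only.

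The UMIs of each end were added up, scaled to CPM and compared as log2 of late over early. At a minimum of 20 CPM in the higher end 4925 genes were compared. Late cells had 46 of them (0.934%) 2-fold or more higher and 118 (2.40%) 2-fold or more lower, and the median log2 ratio was -0.06 over all 4925. Only 4 genes were 4-fold higher, while 22 were 4-fold lower. None of the 46 higher genes and 29 of the 118 lower genes belonged to the S phase or the G2 and M phase lists. Both lists are small, with 34 and 29 members among the 7022 genes with at least 10 CPM. Their absence from the 46 higher genes therefore says little about those genes. From bin to bin, 31 of the 46 were higher at every step and 83 of the 118 lower at every step, against 377 and 799 of all 4925 genes. Both sets were picked by the difference between bins 1 and 4, which favours such a course, so these counts are descriptive only. The largest step of 34 of the 46 higher genes lay between bins 3 and 4. The lower genes fell into 2 sets of like size: 56 had their largest step between bins 1 and 2 and 54 between bins 3 and 4.

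**Figure D2:**
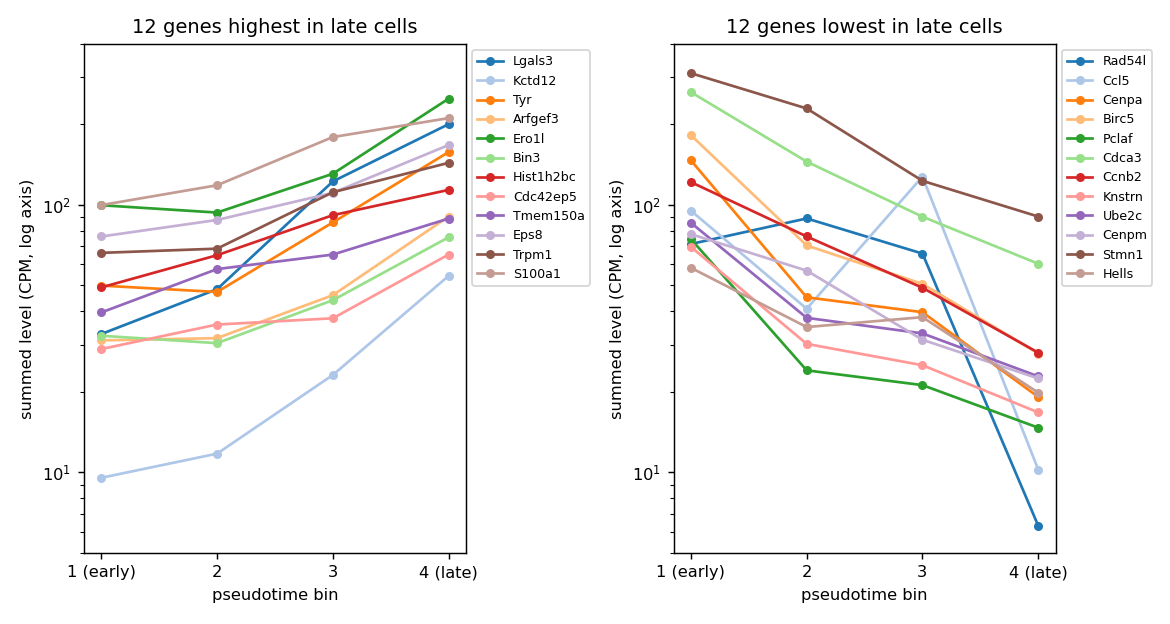
Summed level (CPM, log axis) in each pseudotime bin of the 12 highest and the 12 lowest genes by late over early ratio, at a minimum of 50 CPM in the higher end. Lgals3 and Kctd12 are higher in each following bin, Cenpa and Pclaf are lower from bin 2 on, and Rad54l is low only in bin 4.

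Genes of cell division made up most of the 12 lowest. For the S phase list, 30 of 34 measured members (at least 10 CPM in the higher end) were at least 1.5-fold lower in late cells and 0 higher, with a median log2 ratio of -1.21. For the G2 and M phase list, 22 of 29 were lower and 0 higher, with a median of -1.17. Over all 7022 genes at that minimum, 6.96% were lower by 1.5-fold, 4.70% were higher, and the median was -0.04. Pseudotime and the deposited phase scores come from the same cells, so these counts describe the axis.

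Cenpa encodes the histone H3 variant of centromeres (chr5:30666777-30674830, plus strand, mm10). It stood at 147, 45.1, 39.7 and 19.1 CPM in the 4 bins, a log2 ratio of -2.94 (95% interval -3.17 to -2.72). Its level was highest by far in the early bin, and at one depth it was seen in 63.0% of early and 23.7% of late cells (70.6% and 30.7% unthinned). Birc5, which encodes the mitotic and anti-apoptotic protein survivin, was at 182, 70.6, 50.7 and 27.8 CPM (log2 -2.71). It was seen in 78.0% of early and 34.2% of late cells at one depth. Both genes therefore remained detectable in a minority of late cells.

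Cdca3, a trigger of mitotic entry, was at 264, 145, 90.4 and 60.3 CPM (log2 -2.13, interval -2.26 to -2.002). Ccnb2, a mitotic cyclin, was at 122, 76.2, 49.0 and 28.02 CPM (log2 -2.12). Ube2c, the ubiquitin-conjugating enzyme of the anaphase-promoting complex, was at 85.8, 37.8, 33.1 and 22.8 CPM (log2 -1.91). These 3 were lower in each following bin. Hmmr, which encodes a spindle-associated protein, was named after its values were seen and had the steepest ratio of the measured G2 and M genes, at 15.7, 2.60, 2.30 and 0.724 CPM, the last from 7 UMIs.

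Among the replication genes, Pclaf, whose protein binds the sliding clamp PCNA, was at 74.6, 24.1, 21.2 and 14.7 CPM (log2 -2.34). Tk1, which encodes thymidine kinase, was at 37.9, 19.5, 9.40 and 7.24 CPM (log2 -2.39). Hells, a chromatin remodeller, was not lower at every step, with 58.2, 34.9, 38.0 and 19.9 CPM (log2 -1.55). Stmn1, which encodes the microtubule-destabilising protein stathmin, was at 311, 229, 123 and 90.5 CPM (log2 -1.78). Ezh2, the Polycomb methyltransferase, had a log2 ratio of -1.18 and the replication-independent histone variant gene H2afz one of -1.003, from 3097 to 1545 CPM. The lists that hold them had members in both directions: 2 of 17 genes of the chromatin demethylase and quiescence list were higher and 4 lower, and 2 of 10 histone genes were higher and 1 lower. Of 23 cytoskeletal genes 7 were 1.5-fold lower, 6 of them tubulins, including Tubb5 at 428 and 246 CPM and Tuba1b at 637 and 370 CPM. Beside these list counts, 4.70% of all genes at the same minimum were 1.5-fold higher and 6.96% lower.

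A division into 10 finer bins showed that the decline was not even. The summed S phase list stood at 1763 CPM in finer bin 1, 708 CPM in 6, 1142 CPM in 8 and 530 CPM in 10. The summed G2 and M phase list stood at 2762, 788, 1063 and 666 CPM in the same bins. Both lists thus had another, smaller maximum in finer bin 7 or 8, near the border of the late end. A phase call from the same gene lists put 10 early cells in G2/M and 0 late cells in S or G2/M. Without those 10 cells, 46 genes were 2-fold higher (0.935%) and 114 lower (2.32%).

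Of 16 measured genes of the list of G1 cyclins, their kinases and cell cycle inhibitors, 1 was 1.5-fold higher and 0 lower, beside 4.70% and 6.96% of all genes. That gene was the kinase gene Cdk2, which overlaps Pmel on the opposite strand. Since no source used here states whether the counting used strand, its log2 ratio of 0.74 is uncertain. Cdkn1b, which encodes p27, had a log2 ratio of 0.56, and Cdkn1a, which encodes p21, one of -0.42 (315 CPM early, 235 CPM late). Of 16 measured p53 targets, 1 was 1.5-fold higher, near the 4.70% of all genes, and the list median was 0.05. That target was Gadd45a, a stress and DNA damage gene (28.03 to 58.3 CPM, log2 1.06).

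**Figure D3:**
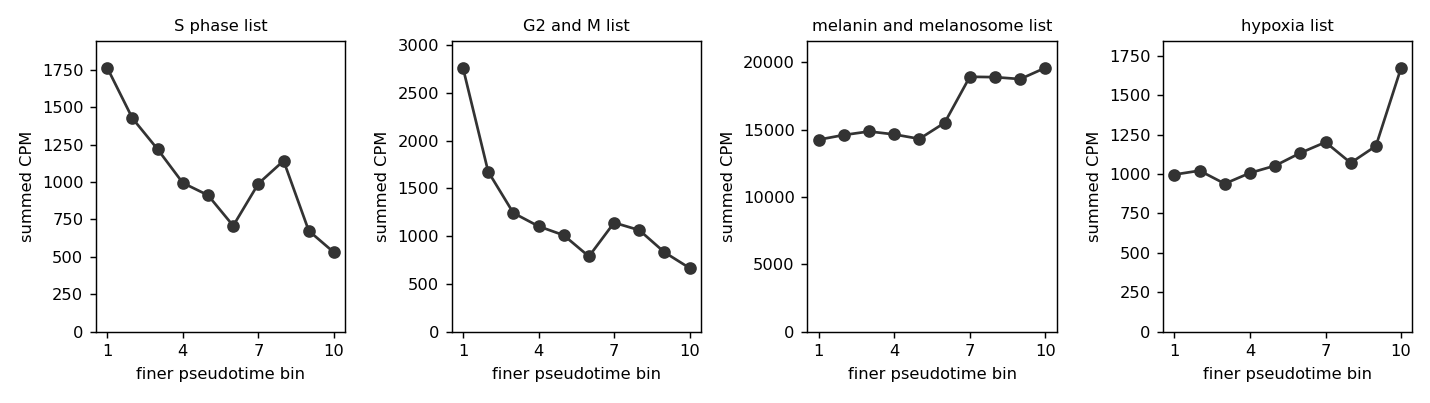
Summed level (CPM, vertical axes start at 0) of 4 gene lists in each of 10 finer pseudotime bins of non-cycling B16F0 cells. The division lists dip at bin 6, reach 1142 CPM (S phase) again at bin 8 and end lowest, the melanin list steps from 15500 to 18914 CPM between bins 6 and 7, and the hypoxia list is highest in bin 10 at 1673 CPM.

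The melanin and melanosome genes were higher in late cells. Among 32 measured members 12 passed 1.5-fold upward and 0 downward, the median log2 ratio being 0.45, against 4.70% higher and a median of -0.04 over all genes at that minimum. The summed list stood at 14617, 14445, 17303 and 19322 CPM over the bins, so bins 1 and 2 were alike. By finer bins the difference came as a step, from 15500 CPM in bin 6 to 18914 CPM in bin 7, with little difference on either side. Per cell, the median was 13971 CPM early and 18941 CPM late, with an SD of 5774 and 6340, so the early and late cells overlap widely.

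Tyr encodes tyrosinase, the rate-limiting enzyme of melanin synthesis (chr7:87424771-87493512, minus strand, mm10). It was at 49.9, 47.3, 86.0 and 158 CPM over the bins, a log2 ratio of 1.66 (1.51 to 1.81), and was seen in 45.8% of early and 87.9% of late cells at one depth (51.2% and 90.1% unthinned). The other enzymes of the pathway differed less: Dct, dopachrome tautomerase, was at 1954, 1917, 2335 and 3281 CPM (log2 0.75, 0.72 to 0.77). Tyrp1, tyrosinase-related protein 1, was at 1300, 1177, 1344 and 1793 CPM (log2 0.46, 0.43 to 0.50). All 3 enzyme genes were slightly lower in bin 2 than in bin 1.

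Of the melanosome membrane proteins, the transporters Oca2 (4.09 to 11.2 CPM, log2 1.45) and Slc45a2 (196 to 296 CPM, log2 0.59) and the G protein-coupled receptor Gpr143 (log2 0.60) were 1.5-fold higher. The copper transporter gene Atp7a, which supplies tyrosinase with its cofactor, had a log2 ratio of 0.59. For melanosome transport, Myo5a, the actin motor, was at 73.5 CPM early and 114 CPM late (log2 0.64), and Sytl2, a Rab27 effector, at 16.9 and 37.4 CPM (log2 1.14). Trpm1, the melanocyte cation channel, was at 66.2, 68.6, 112 and 144 CPM (log2 1.12, 0.99 to 1.25). Met, the hepatocyte growth factor receptor and an MITF target, was at 9.05, 5.97, 16.9 and 34.4 CPM (log2 1.93, 1.59 to 2.28). Ptgds, prostaglandin D synthase, was at 1106, 1290, 1892 and 2089 CPM (log2 0.92).

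The structural genes differed among themselves. Pmel, which forms the melanosome fibrils, was at 1163, 1092, 1585 and 1718 CPM (log2 0.56, below 1.5-fold). Mlana, a partner of Pmel in melanosome maturation, was at 2758, 2644, 3114 and 2699 CPM (log2 -0.03), highest in bin 3. None of 10 measured lineage regulators passed 1.5-fold in either direction, beside 4.70% higher and 6.96% lower of all genes. For a list of 10 genes this count is near those shares and says little. Mitf itself was at 94.9, 91.8, 96.9 and 125 CPM (log2 0.40, 0.27 to 0.52), Pax3 had a log2 ratio of 0.48 and Sox10 one of -0.03. On the log2 scale, the differences of Mitf and Pax3 were near that of Tyrp1 and the melanin list median, below those of Tyr, Met and Trpm1 and above that of Mlana.

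The genes with the highest ratios lay mostly outside the pigment list. Lgals3 encodes galectin-3, a lectin that binds beta-galactosides (chr14:47367751-47386160, plus strand, mm10). It was at 32.9, 48.4, 122 and 201 CPM, a log2 ratio of 2.61 (2.44 to 2.78), and was seen in 24.2% of early and 58.0% of late cells at one depth (31.4% and 63.1% unthinned). Of its UMIs, 30.8% of the early and 27.2% of the late lay in 5 cells. Without the 5 cells with the most UMIs of the gene at each end, it stood at 23.3 CPM early and 150 CPM late (log2 2.69). Kctd12, an auxiliary subunit of GABA-B receptors, was at 9.54, 11.7, 23.1 and 54.3 CPM (log2 2.51) and was seen in 14.3% and 54.5% of cells at one depth. The other genes of the 12 highest were Arfgef3, Ero1l, Bin3, Hist1h2bc, Cdc42ep5, Tmem150a, Eps8 and S100a1, with log2 ratios between 1.08 and 1.54. Of these, Eps8, which encodes an actin-capping adaptor, stood at 76.2 CPM early and 168 CPM late, and S100a1, a calcium-binding protein gene, at 99.9 and 211 CPM. Hist1h2bc has near-identical relatives, so its ratio depends on how reads shared among them were counted.

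Ero1l, an endoplasmic reticulum oxidoreductase and a hypoxia target, was at 99.8, 93.7, 131 and 250 CPM (log2 1.32). Bnip3, a mitophagy receptor of the same hypoxia list, was at 14.2, 19.2, 31.3 and 49.6 CPM (log2 1.80), with 22.3% of its late UMIs in 5 cells. These were the 2 of 14 measured hypoxia genes that were 1.5-fold higher. The median of the list was 0.39 and 0 were lower, beside 4.70% higher and 6.96% lower of all genes at that minimum. The summed list was highest in finer bin 10, at 1673 CPM against 1177 CPM in bin 9, and its highest late cell stood at 10317 CPM beside a late median of 1044 CPM. Of the glycolytic genes, Hk2 was 1.5-fold higher (35.4 to 60.1 CPM, log2 0.76) and Hk1 lower (21.2 to 8.997 CPM, log2 -1.24), while Gapdh had a log2 ratio of -0.01.

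Not all of the lower genes belong to division. Rad54l encodes a DNA helicase-like protein of homologous recombination (chr4:116094264-116123690, minus strand, mm10) and had the lowest ratio of the genes above 50 CPM. It stood at 71.4, 89.0, 65.8 and 6.31 CPM (log2 -3.50, -3.90 to -3.12), so the difference lay wholly between bins 3 and 4. Of its late UMIs 49.2% lay in 5 cells, and without the 5 cells with the most UMIs at each end it stood at 67.4 CPM early and 3.24 CPM late (log2 -4.38). At one depth it was seen in 63.7% of early and 3.89% of late cells (72.0% and 8.53% unthinned). S100a6, a calcium-binding protein gene, had the same course, with 45.7, 69.1, 48.0 and 4.24 CPM (log2 -3.43). The neural crest and glial gene Mbp was at 230, 247, 185 and 91.4 CPM (log2 -1.33), and Fabp5, a fatty acid carrier, at 1520, 1574, 1299 and 621 CPM (log2 -1.29). In contrast to Cenpa or Pclaf, none of these 4 was lower in bin 2 than in bin 1.

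Immediate early genes, which respond within minutes to growth factors and stress, were lower in 7 of 16 measured members, with 0 higher and a median of -0.55, beside 6.96% of all genes lower. Within cluster C3 the list had 1 gene higher and 1 lower of 15 (median -0.11), near the 3.96% higher and 6.39% lower of all genes there. Against early cells of state 6 it had 2 higher and 3 lower of 15 (median -0.29), where 5.45% of all genes were lower. Klf4 was at 21.6, 19.9, 13.2 and 7.96 CPM (log2 -1.44), Fos at 23.9, 27.8, 29.7 and 14.1 CPM (log2 -0.77) and Klf2 at 19.3, 20.4, 12.9 and 2.17 CPM (log2 -3.15). The chemokine gene Ccl5 was at 95.2, 40.9, 128 and 10.2 CPM (log2 -3.22), yet 71.3% of its early and 71.7% of its late UMIs lay in 5 cells. It was seen in 8.42% of early and 6.23% of late cells at one depth, so few cells carried it. Without the 5 cells with the most UMIs of the gene at each end, it stood at 27.9 CPM early and 2.94 CPM late (log2 -3.25).

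The large housekeeping groups hardly differed. Of 78 cytosolic ribosomal protein genes 1 was 1.5-fold higher, Rps24 (1793 to 2926 CPM, log2 0.71), with the next gene at 0.37, and the list median was 0.11. The 12 mitochondrially encoded genes had a median of 0.10 and the 67 nuclear genes of oxidative phosphorylation one of -0.10, with 0 and 1 members past 1.5-fold. The 31 proteasome genes had a median of -0.24, with 2 lower, near the 6.96% of all genes. Over all 37 lists, 31 of 781 measured genes were higher (3.97%, beside 4.70% of all genes) and 95 lower (12.2%, beside 6.96%).

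**Figure D4:**
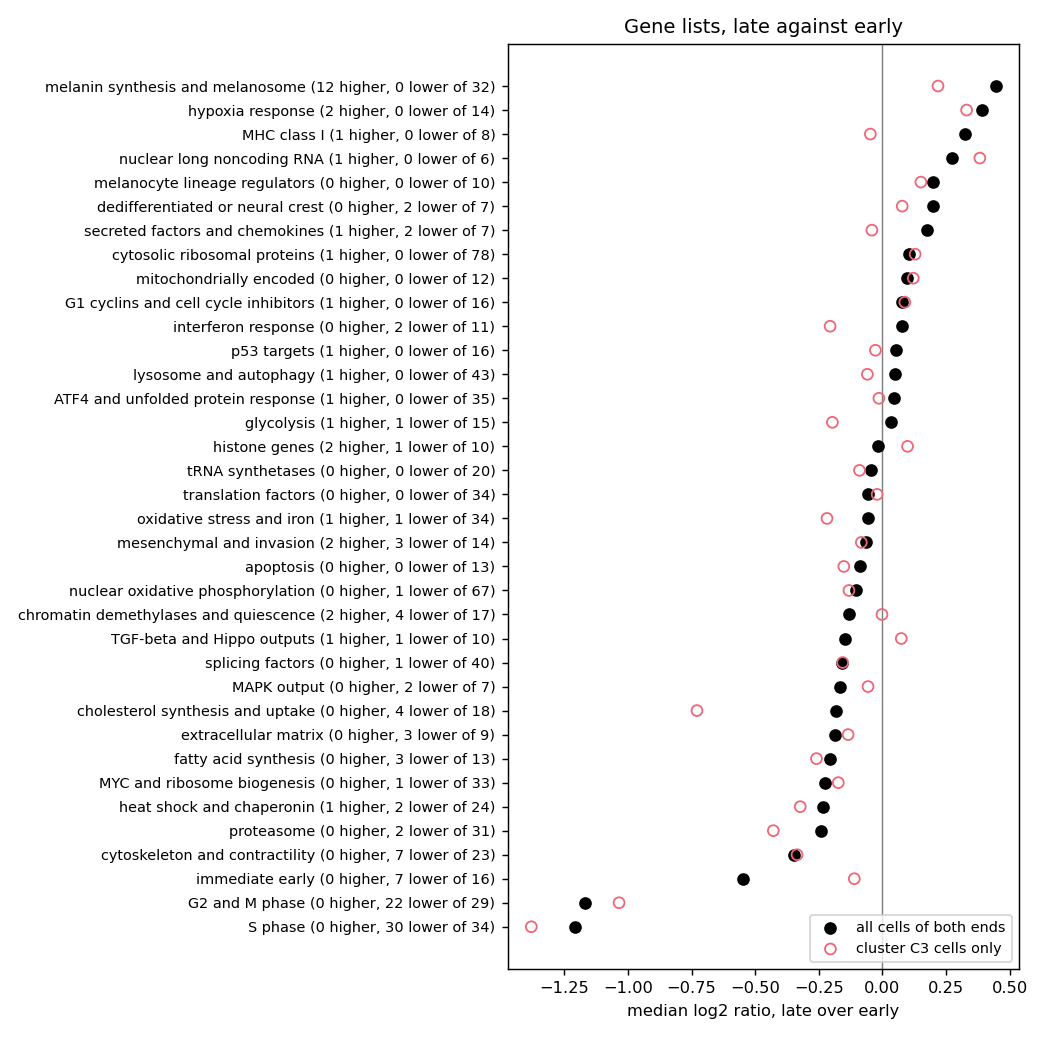
Median log2 ratio (late over early, horizontal axis) of each gene list over its measured members (minimum 10 CPM), for all cells of both ends (filled) and for cluster C3 cells only (open). The numbers beside each name count members at least 1.5-fold higher or lower in all cells; S phase and G2 and M phase lie lowest in both, and the melanin list falls from 0.45 to 0.22 within C3.

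Because C3 holds most late but only 79 early cells, the ends were also compared within that cluster (79 against 285 cells). There, 20 genes were 2-fold higher (0.406%) and 90 lower (1.83%). Of the 46 higher genes, 29 stayed at least 1.5-fold higher within C3, where 2.60% of all genes with 20 CPM were. Of the 118 lower genes 103 stayed at least 1.5-fold lower, beside 5.77% of all genes. Both sets were picked in ends that include these same cells, so their excess over all genes was largely built in and is descriptive only. The division lists were as low as before: 30 of 33 measured S phase genes (median -1.38) and 23 of 29 G2 and M genes (median -1.03) were lower, against 6.39% of all genes. The melanin list was closer to the background, with 3 of 33 higher, 1 lower and a median of 0.22, against 3.96% of all genes higher.

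Single genes split in the same way. Within C3, Tyr was at 116 CPM early and 159 CPM late (log2 0.46) and Trpm1 at 117 and 144 CPM (log2 0.29), whereas Lgals3 was at 74.95 and 204 CPM (log2 1.45) and Kctd12 at 18.8 and 54.6 CPM (log2 1.54). Rad54l was already near its late level in the early C3 cells, at 5.19 CPM against 4.01 CPM (log2 -0.37). Mbp, at 82.7 and 92.0 CPM, had a log2 ratio of 0.15, opposite in sign to the whole ends, as did Fos (0.29), Cyr61 (0.24) and Nr4a1 (0.09). Pmel also had the opposite sign within C3, at 1908 CPM early and 1734 CPM late (log2 -0.14, -0.18 to -0.09). Cenpa (125 to 19.5 CPM) and Birc5 (167 to 27.9 CPM) kept log2 ratios of -2.68 and -2.59. Cholesterol genes differed more within C3. Over the whole ends 4 of 18 were lower (median -0.18), beside 6.96% of all genes. Within C3 12 of 19 were lower (median -0.73), beside 6.39% of all genes. Among them were Idi1 at 28.2 and 10.98 CPM and Mvk at 19.8 and 9.92 CPM.

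The early cells of state 6 lie closest to the border and those of state 5 farthest from it. The same 293 late cells entered both comparisons, so these are given side by side only. Against state 5, 73 genes were 2-fold higher (1.47%) and 168 lower (3.37%); against state 6, 31 were higher (0.629%) and 49 lower (0.995%). Against state 6, Cenpa had a log2 ratio of -1.56, Birc5 -1.64, Tyr 1.21 and Lgals3 2.62. Against all early cells the same genes had -2.94, -2.71, 1.66 and 2.61. With state 6 as the early end, 27 of 30 measured S phase genes were 1.5-fold lower and 0 higher (median -0.98), and 10 of 22 measured G2 and M genes were lower and 1 higher (median -0.53), against 5.45% of all genes. The median summed G2 and M level per cell was 2481 CPM in state 5 and 1102 CPM in state 6.

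The same upper and lower 25% of pseudotime were taken in the 344 non-cycling B16F10 cells (86 against 86) and in the 1411 cycling B16F0 cells (353 against 353), each by its own pseudotime. In B16F10 the early end had a median of 15.0 and lay in states 1 and 7, so the stretch of the path differs. Both lines' values stand in 1 deposited pseudotime column. There 210 genes were 2-fold higher (3.91%) and 394 lower (7.34%). These included 28 of the 46 genes higher in B16F0 (60.9%, which is 13.3% of the B16F10 genes) and 83 of the 118 lower (70.3%, 21.1% of the B16F10 genes). Cenpa (log2 -3.43), Birc5 (-3.10), Kctd12 (2.26) and Tyr (1.34) had ratios of the same sign as in B16F0. The hypoxia list was higher in 15 of 19 measured genes (median 1.28), with Bnip3 at 34.7 and 303 CPM and Ero1l at 67.1 and 461 CPM. The proteasome list was lower in 24 of 31 (median -0.86). Against the 1.5-fold background of 14.0% higher and 20.1% lower in B16F10, both shares stand above it; the difference between the lines was not tested.

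In cycling B16F0 cells, whose late end had a median pseudotime of 7.91, below the early median of the non-cycling cells, 15 genes were 2-fold higher (0.299%) and 83 lower (1.66%). They included 8 of the 46 and 16 of the 118. Tyr (log2 2.01), Kctd12 (2.14) and Lgals3 (1.60) had ratios of the same sign there, while Rad54l had a log2 ratio of -0.54 and Cenpa one of -0.52.

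**Figure D5:**
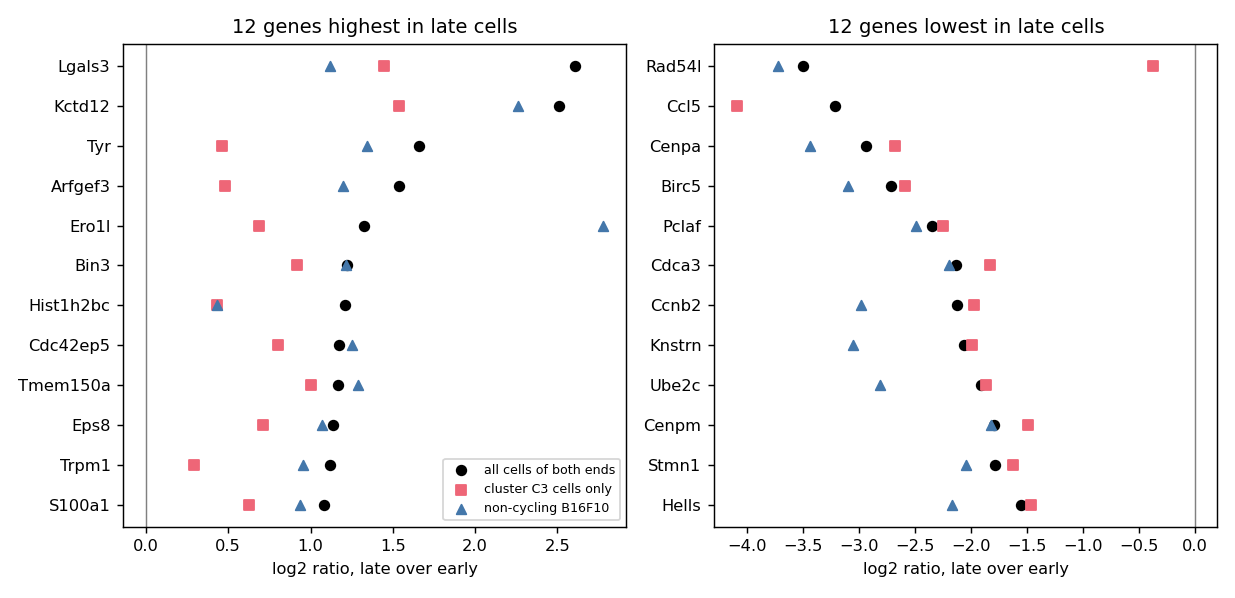
Log2 ratio (late over early, horizontal axis) of the 12 highest and 12 lowest genes in all cells of both ends (circles), in cluster C3 cells only (squares) and in non-cycling B16F10 cells (triangles). Within C3 Tyr and Trpm1 are at 0.46 and 0.29 and Rad54l at -0.37, while Cenpa and Birc5 keep their ratios; Ccl5 has no B16F10 point.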

How the data were processed

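Single-cell 3' libraries of B16F0 and B16F10 were made with 10x Chromium chemistry v2, as the labels' protocols state. The submitters' processing notes list Seurat 3.0, Cell Ranger 3.0.0 and mm10. No source used here gives the cell filters. The authors deposited raw UMI counts, per the file headers, and a cell annotation with the line, clusters, states, pseudotime and scores for S, G2/M and MITF.

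Counts were summed per end and scaled to CPM. Log2 ratios carry exact conditional binomial 95% intervals. Genes were counted at 2-fold with 20 CPM in the higher end, and list members at 1.5-fold with 10 CPM. Steps between pseudotime bins used log2 of CPM plus 1. For shares of cells with a UMI, cells were thinned to 20273 UMIs, leaving out 20 early and 36 late cells. No doublet caller was run; an alternative leaves out the 5% of cells with the most UMIs. Named genes are the 12 highest and 12 lowest with at least 50 CPM, the 3 largest of each list and fixed genes. Hs3st1, Shc4, Pla2g2e, Brca1, Pmp22, Oca2, Myo5a, Slc45a2, Cxcl10, Klf2, S100a4, Rrm2, Ccna2, Hmmr, Idi1, Mvk, Hmgcs1, Sqle and other list members given with 1 ratio were named after their values were seen. The members, lists and tests were chosen with earlier results of these data known. Coordinates come from GENCODE M21 on GRCm38 and promoters from RefSeq. Alternatives were other scalings, ends, cells and minimums. Software versions were edgeR 4.0.16 (TMM) and DESeq2 1.42.0 (size factors) in R 4.3.3, with scanpy 1.11.5, pandas 2.3.3, scipy 1.17.1, numpy 2.4.6 and matplotlib 3.10.9 in Python 3.11.15. The ratio step was tested on simulated counts.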

Additional observations from a re-analysis of the deposited data

Results flagged for a closer look

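Hk1, which encodes hexokinase 1, had opposite directions in the 2 lines. Its late over early log2 ratio was -1.24 in non-cycling B16F0 (21.2 CPM early, 8.997 CPM late) and 1.31 in non-cycling B16F10 (20.7 CPM early, 51.4 CPM late). With 1 library per line, the difference was not tested. Within cluster C3 of B16F0 the log2 ratio was -0.32.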

How the results depend on the processing

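No paired analysis was possible because each line gave 1 library. Across 154 named genes and 2155 alternative values, 5 of the 88 genes past 1.5-fold changed sign: Ccl5 between the upper and lower 50% (0.092), and Mbp (0.15), Nr4a1 (0.095), Fos (0.29) and Cyr61 (0.24) within cluster C3. The 46 genes 2-fold higher became 72 when mitochondrial and ribosomal protein genes were left out of the total, 126 between the outer 10% ends, 13 between the 50% ends, 20 within C3, 73 against early cells of state 5, 842 with no CPM minimum and 7 at 100 CPM. The 118 lower became 288 between the 10% ends, 23 between the 50% ends, 49 against early cells of state 6, 819 with no minimum and 21 at 100 CPM. The 31 list members higher became 58 with that smaller total, 65 between the 10% ends, 17 between the 50% ends, 48 against state 5, 72 with no minimum and 14 at 100 CPM, and the 95 lower became 176 between the 10% ends, 46 between the 50% ends, 150 with no minimum and 21 at 100 CPM. Between the 10% ends, state 5 held 100% of the early cells and states 6 and 7 held 0. For the 2-fold counts, 4925 genes were tested with all cells and genes and 6253 with the smaller total. With no minimum 13204 were tested, and at 100 CPM 1447, so these counts do not compare directly. More or fewer genes tested or fewer cells enter some of these counts, and otherwise the cause was not tested. TMM factors, size factors and thinning gave 47 to 52 higher and 109 to 114 lower. The comparison with early cells of state 5 or 6 and the one without the 5 cells with most UMIs of a gene were chosen after seeing the data. The late end could not be split by state.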

Other observations

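Some genes below 50 CPM had ratios as large as those of the genes described above; they were chosen after their values were seen. Hs3st1, a heparan sulfate sulfotransferase gene, stood at 2.73, 2.89, 9.30 and 29.4 CPM over pseudotime bins 1 to 4 (log2 3.43, 2.87 to 4.05) and was seen in 1.83% of early and 33.5% of late cells at one depth. Shc4, a signalling adaptor gene, was at 12.1, 9.91, 22.6 and 47.2 CPM (log2 1.97). Pla2g2e, a secreted phospholipase gene, was at 10.5, 10.1, 17.0 and 46.9 CPM (log2 2.16). Brca1, a homologous recombination gene, was at 8.76, 9.05, 13.5 and 27.5 CPM (log2 1.65), in the opposite direction to Rad54l of the same repair pathway. Pmp22, a myelin gene, was at 32.7, 27.3, 14.4 and 5.69 CPM (log2 -2.52), and S100a4 at 16.1, 17.5, 14.9 and 1.24 CPM (log2 -3.69). The chemokine gene Cxcl10 had a log2 ratio of -2.60, with 82.6% of its early UMIs in 5 cells. Without the 5 cells with the most UMIs of the gene at each end, the log2 ratio was -0.97 for Cxcl10, 4.31 for Hs3st1 and -4.79 for S100a4.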
